A study of Mus musculus with 16 samples.

Results

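The cortex of 4 male R6/2 mice was compared with that of 4 male non-transgenic (NT) mice, which are 8 of the 16 long-read samples of the series. The R6/2 mouse carries a transgene with the first exon of human HTT and an expanded CAG repeat under the human promoter, and models Huntington's disease (HD) by a fragment of mutant huntingtin rather than the whole protein. The NT mice lack the transgene, and all animals were 3 months old. Members were chosen by the titles of the samples, which name region, sex and genotype, and the other 8 samples are striatum. RNA was read as full-length cDNA with PacBio Iso-seq, so that a read covers a transcript as a whole and is assigned to an annotated isoform, to part of one, or to an unannotated isoform of a known gene.

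In HD, mutant huntingtin is present in every neuron, yet striatal projection neurons and the cortical neurons that project to them are affected most. Huntingtin fragments enter the nucleus and interfere with transcription factors that drive neuronal genes, and transcripts of synaptic, calcium and peptide signalling are among those known to fall in models of the disease. In bulk tissue, fewer cells of a type and less RNA per cell cannot be told apart, which holds for every cell type marker below.

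Between 252885 and 581942 reads were deposited for the NT and between 486596 and 808814 for the R6/2 samples, and 202664 to 492906 and 418589 to 699709 of these lay in annotated genes. Gene levels are given as CPM, the count of a gene scaled to a fixed number of reads in genes, scaled between samples by TMM. Shares of incomplete splice match (ISM), unannotated, genomic, antisense, intergenic and mitochondrially encoded reads, and the mean isoform length, did not differ between genotypes (exact two-sided permutation tests, adjusted p = 0.886 for each of 8 measures). Antisense reads made up 9.62% in NT 3 and 3.65% to 6.25% in the other mice. Ttr, the transthyretin gene of the choroid plexus, lay between 1013 and 1681 CPM in NT 4, R6/2 2 and R6/2 3 and between 4.78 and 44.3 CPM elsewhere, and summed blood cell markers reached 1140 CPM in an R6/2 sample and at most 66.9 CPM in NT samples. None of the 6 blood cell markers had enough reads to be tested. Of 10 choroid plexus markers 2 were tested, and neither was called.

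The mouse Htt gene and the insertion site of the transgene were examined first. Reads of the mouse Htt gene were few, at 5.22 to 28.7 CPM in NT and 22.7 to 35.4 CPM in R6/2 mice, and Htt did not pass the test (log2 fold change 0.66, edgeR adjusted p = 0.376). The transgene is a human exon and is not listed as a gene of its own. Gm12695, the gene at the insertion site of the transgene, had no read in any NT mouse and 3 reads in R6/2 3 and 1 in R6/2 4.

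In R6/2 cortex, 200 of 6119 tested genes (3.27%) differed from NT at an adjusted p under 0.05 in edgeR's quasi-likelihood test. Of these, 172 were lower (2.81%) and 28 were higher (0.458%). The fall exceeded a log2 fold change of 1 for 109 of the lower genes, and the rise did so for 14 of the higher genes. Called genes were mostly lower, while 48.2% of all tested genes had a log2 fold change below 0 and their median was 0.01. An unadjusted p under 0.05 in edgeR was found for 1054 of the 6119 tested genes. CPM values of the genotypes did not overlap for 183 of the 200 genes, against 625 of all tested genes (10.2%). With each mouse left out in turn, 72 genes were called in all 8 fits, of which 69 were lower and 3 higher. Called genes numbered 306 without NT 1 (82 higher, 224 lower), 123 without R6/2 1, 118 without R6/2 2, 95 without R6/2 3 (9 higher, 86 lower) and 133 without R6/2 4.

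Among called genes without overlap whose mean in the higher genotype reached 20 reads, the largest falls included genes of neuronal signalling. Ppp1r1b (ENSMUSG00000061718, chromosome 11, 98348404 to 98357796, mm10), which encodes the phosphatase inhibitor DARPP-32 that acts downstream of dopamine, measured 245, 203, 157 and 177 CPM in the 4 NT mice and 41.3, 26.98, 42.5 and 37.9 CPM in the 4 R6/2 mice. The highest R6/2 value was far below the lowest NT value, with a 5.22-fold fall (log2 fold change −2.38, SE 0.22, edgeR adjusted p = 1.64e-06). Lamp5 (ENSMUSG00000027270, chromosome 2, 136052239 to 136069917), a lysosome-associated membrane protein of superficial cortex and of some interneurons, measured 443, 401, 277 and 378 CPM in NT and 82.6, 106, 84.9 and 75.8 CPM in R6/2 mice. Gabrd (ENSMUSG00000029054, chromosome 4, 155384980 to 155398112), the δ subunit of extrasynaptic GABA-A receptors, measured 313, 222, 287 and 254 CPM in NT and 51.6, 65.2, 60.6 and 78.3 CPM in R6/2 mice. Both fell over 4-fold without overlap (log2 fold changes −2.11 and −2.07, SE 0.20 and 0.19, edgeR adjusted p = 1.64e-06 for each).

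Itpka, a kinase that phosphorylates inositol trisphosphate in dendritic spines, fell 4.80-fold, from 99.2 to 192 CPM in NT to 22.7 to 37.9 CPM in R6/2 mice. Kalrn, an exchange factor that shapes spines, fell 4.66-fold, from 104 to 162 CPM to 22.7 to 31.5 CPM. The myosin heavy chain gene Myh7 fell 4.91-fold, from 47.0 to 87.6 CPM to 8.99 to 16.5 CPM. Fjx1 and E130012A19Rik fell 3.98-fold and 3.92-fold. In each of these genes the genotypes did not overlap, and the 10 largest falls by that rule, which also include Penk and Dbp, were called in every fit with 1 mouse left out.

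Called rises were fewer. Nfyb (ENSMUSG00000020248, chromosome 10, 82748701 to 82764144), a subunit of the transcription factor NF-Y, measured 26.6, 59.7, 52.2 and 47.0 CPM in NT and 120, 110, 117 and 159 CPM in R6/2 mice. It rose 2.70-fold without overlap (log2 fold change 1.43, SE 0.24, edgeR adjusted p = 0.00149). Cetn2, a centrin of the centrosome and of DNA repair, rose 2.43-fold from 20.9 to 50.1 CPM in NT to 73.2 to 118 CPM in R6/2 mice. The long noncoding RNAs Snhg12 and Kcnq1ot1 rose 2.50-fold and 2.22-fold. Ctps2, a cytidine triphosphate synthase, rose 2.26-fold, Wdr43, a factor of ribosome biogenesis, 2.24-fold, and Vps37a, a subunit of the endosomal sorting complex, 2.09-fold. Ermard rose 2.13-fold and Bex4 rose 2.12-fold. Of the 10 largest rises by the same rule, which also include Cry1, Nfyb and Cetn2 were called in every fit with 1 mouse left out, Wdr43 was called in 2 of the 8 and Ermard in 1.

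**Figure D1:**
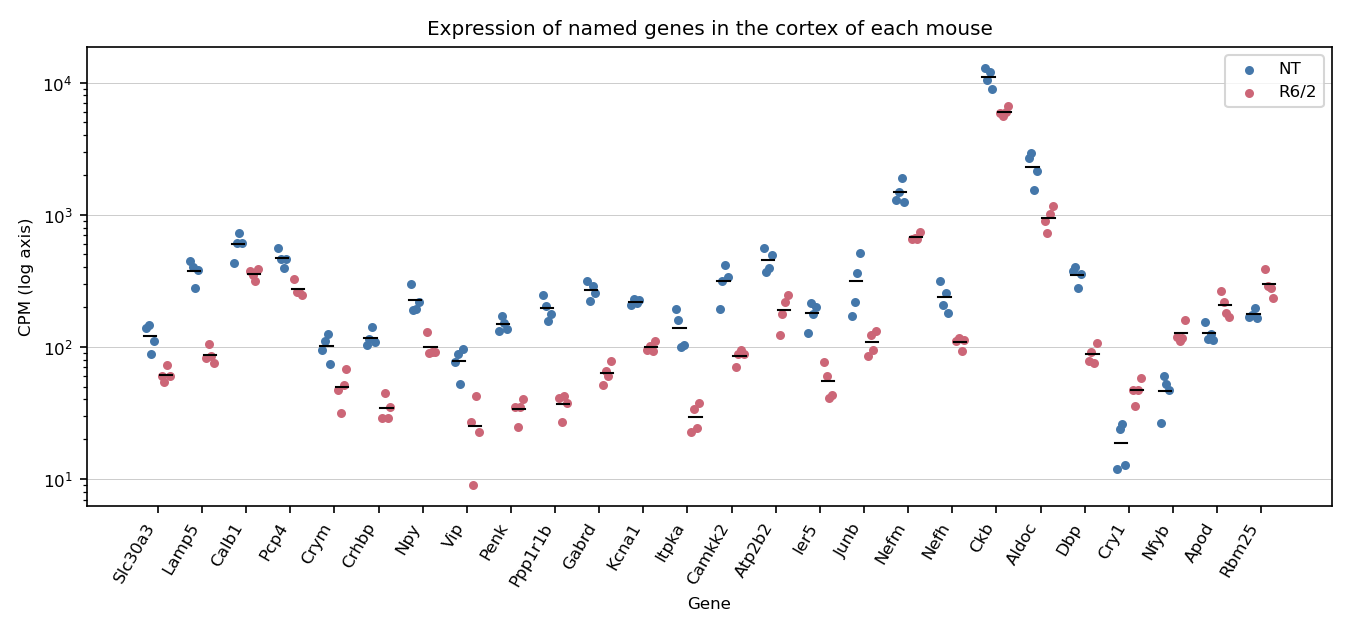
Expression of 26 named genes in CPM (log axis), with 1 point per mouse, NT in blue and R6/2 in red, and black lines at the mean of 4 mice. Ppp1r1b sits between 157 and 245 CPM in NT and between 26.98 and 42.5 CPM in R6/2 mice, while Cry1, Nfyb, Apod and Rbm25, at the right, are higher in R6/2 mice.

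Lists of genes by cell type and pathway were then read for how many of their tested members passed, beside the 2.81% of tested genes called lower and the 0.458% called higher. They were chosen with earlier results of these data known, so their counts are descriptions. The 42 lists hold 881 tested genes, and 65 called genes belong to at least 1 list and 135 called genes to none. Summed levels did not overlap between genotypes in many lists, in either direction, so a sum without overlap does not by itself set a list apart.

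Among markers of cortical neurons, all called members were lower. Of 4 tested upper layer markers, Lamp5 and the calcium buffer Calb1 were lower. Calb1 measured 434, 609, 726 and 611 CPM in NT and 376, 351, 317 and 389 CPM in R6/2 mice, a 1.66-fold fall in which the lowest NT value lay close to the highest R6/2 value. Of 5 tested deep layer markers, Pcp4, a calmodulin-binding peptide, fell 1.73-fold, Crym, a thyroid hormone-binding protein, fell 1.98-fold, and Parm1 fell 2.31-fold. Summed over all listed members, upper layer markers lay between 1081 and 1218 CPM in NT and between 533 and 599 CPM in R6/2 mice, and deep layer markers between 752 and 966 CPM and between 520 and 584 CPM. Neither sum overlapped. No deep layer marker was called without R6/2 2 or R6/2 3 and 1 was without NT 2, NT 3, R6/2 1 or R6/2 4, and 1 upper layer marker was called without any mouse other than NT 1. Of 8 general excitatory markers, Slc30a3, the zinc transporter of glutamatergic vesicles, fell 1.97-fold and was not called without NT 2 or R6/2 2, and the summed levels overlapped, at 804 to 1527 CPM in NT and 785 to 1022 CPM in R6/2 mice. Slc17a7, the main vesicular glutamate transporter of cortex, did not pass (log2 fold change −0.55, edgeR adjusted p = 0.395).

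Interneuron markers were lower by 5 of 12 tested members, and the other 7 had negative log2 fold changes too. Crhbp, which binds corticotropin-releasing hormone, measured 103, 115, 141 and 109 CPM in NT and 28.9, 45.0, 28.8 and 35.4 CPM in R6/2 mice, a 3.36-fold fall (SE 0.23 on the log2 scale, edgeR adjusted p = 0.000118). Vip and Npy, peptides of distinct interneuron classes, fell 3.04-fold and 2.25-fold, and Penk, the enkephalin precursor, 4.36-fold. Gad1, the main enzyme of GABA synthesis, fell from 172 to 368 CPM in NT to 117 to 132 CPM in R6/2 mice. The markers Sst and Pvalb, which define the most abundant interneurons, did not pass (log2 fold changes −0.93 and −0.68), at 28.7 to 70.9 CPM in NT and 13.6 to 32.8 CPM in R6/2 mice for Sst. With 1 mouse left out, 4 or 5 members were called.

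Ppp1r1b and Penk are also markers of striatal projection neurons, of which 4 of 18 listed members could be tested. The summed level of that list was 449 to 619 CPM in NT and 160 to 200 CPM in R6/2 mice. The dopamine receptor genes that define the cells were near 0, with Drd1 at 0 to 8.86 CPM and Drd2 at 0 to 10.4 CPM over the 8 mice. The part of striatal tissue in the result was not tested.

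Astrocyte markers were lower by 4 of 22 tested members, and 90.9% of the 22 had a log2 fold change below 0 with a median of −0.56. Aldoc, the aldolase of astrocytes, measured 2667, 2906, 1525 and 2124 CPM in NT and 902, 733, 1008 and 1162 CPM in R6/2 mice, a 2.43-fold fall without overlap. Apoe, the lipid carrier, fell 1.85-fold, from 16895 to 30325 CPM to 11997 to 14676 CPM. Gjb6, a connexin of astrocyte gap junctions, fell 1.70-fold, and Glul, the enzyme that turns glutamate into glutamine, fell 1.90-fold with overlapping values, since NT 3 lay at 78.3 CPM. Gfap, a marker of reactive astrocytes, did not pass (log2 fold change −0.53, edgeR adjusted p = 0.182). Astrocyte calls numbered 9 without NT 1, 2 without NT 2, NT 4 or R6/2 1, and 1 without R6/2 3.

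In the other non-neuronal lists, 2 genes were called. Of 17 oligodendrocyte markers, the tight junction gene Cldn11 fell 1.87-fold and Apod, an apolipoprotein of myelinating cells, rose 1.65-fold, from 113 to 154 CPM in NT to 169 to 264 CPM in R6/2 mice. Neither was called without NT 2, NT 4, R6/2 1, R6/2 2 or R6/2 3, and 1 was without NT 3. None of 9 microglia, 8 vascular, 2 choroid plexus or 5 interferon and inflammatory genes passed edgeR's test at an adjusted p under 0.05, and none was called by DESeq2, while the unadjusted p was under 0.05 for 1, 1, 0 and 2 of them.

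Calcium and calmodulin signalling held the most called genes of any list. In this pathway, calcium entering a neuron binds calmodulin, which activates kinases and the phosphatase calcineurin, while pumps and stores clear or release the ion. Of 44 tested members, 13 were lower and none was higher, and 90.9% had a log2 fold change below 0. Among the kinases, Camkk2 (ENSMUSG00000029471, chromosome 5, 122731170 to 122779409), which activates CaM kinases I and IV, measured 192, 315, 418 and 336 CPM in NT and 70.2, 87.7, 95.5 and 88.4 CPM in R6/2 mice. Camkk2 thus fell 3.63-fold without overlap (SE 0.22 on the log2 scale, edgeR adjusted p = 3.56e-05). Prkcb, a protein kinase C, fell 2.38-fold, Dgkz, a diacylglycerol kinase, 2.54-fold, and the kinase-like protein gene Camkv fell by 0.81 on the log2 scale.

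The plasma membrane calcium pumps Atp2b2 and Atp2b4 fell 2.38-fold and 2.20-fold, with Atp2b2 at 365 to 564 CPM in NT and 124 to 245 CPM in R6/2 mice. Itpr1, the inositol trisphosphate receptor of the endoplasmic reticulum, fell 1.98-fold, and Ppp3ca, a catalytic subunit of calcineurin, 1.93-fold. Hippocalcin (Hpca), a calcium sensor, fell 1.91-fold with overlapping values. The summed level of the list lay between 20650 and 22370 CPM in NT and between 16100 and 18470 CPM in R6/2 mice, which do not overlap. Calls numbered 8 without R6/2 2 or R6/2 3 and 7 without R6/2 4.

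Ion channels and receptors were read by family. Of 21 potassium channel genes, 4 were lower, and 95.2% had a log2 fold change below 0. Kcna1, a low-threshold voltage-gated channel, measured 207, 229, 214 and 227 CPM in NT and 95.0, 101, 92.5 and 111 CPM in R6/2 mice, with a spread within genotypes of 10.6 and 8.30 CPM (SD, n = 4) around a 2.21-fold fall. Kcnc1, which lets neurons fire fast, fell 2.21-fold, the calcium-gated Kcnma1 fell 2.23-fold, and the tandem-pore channel Kcnk4 fell 5.24-fold at a mean of only 10.8 reads per NT mouse. Without NT 1, 8 of the channels were called. Of 11 sodium and calcium channels, 2 were lower, among them the subunit Cacnb3, which fell 1.84-fold, and neither was called without R6/2 2 or R6/2 3 and 1 was without NT 2, NT 4 or R6/2 4.

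GABA-A receptor subunits held a single call. Gabrd was the only 1 of 10 tested to pass, and the median of the 10 was −0.03, with Gabra4, a frequent partner of δ, at a log2 fold change of −0.01. None of 9 glutamate receptor genes passed (median −0.20), with 1 at an unadjusted p under 0.05 in edgeR and none called by DESeq2. Of 27 G protein coupled receptors and RGS proteins, Hrh3, the presynaptic histamine receptor, fell 6.51-fold, from 31.3 to 44.9 CPM in NT to 1.52 to 10.1 CPM in R6/2 mice.

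Of 25 genes of cyclic nucleotide signalling, 3 were lower, and these were regulators of kinase A and phosphatases. Ppp1r1b, the phosphatase 2A inhibitor Arpp19 and the anchoring protein Akap5 fell 5.22-fold, 1.75-fold and 1.83-fold. Without R6/2 2 or R6/2 3 the number was 1, and without NT 1 it was 5.

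Peptide and granule genes were lower by 5 of 17. Besides Penk, Npy and Vip these were Nrn1, an activity-regulated growth factor that fell 1.88-fold with overlapping values, and the granule protein Chga, which fell by 0.66 on the log2 scale, from 528 to 580 CPM in NT to 314 to 374 CPM in R6/2 mice. Without NT 2, NT 4 or any of the R6/2 mice, 3 were called.

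Of 38 vesicle and SNARE genes, 4 were lower: Rph3a, an effector of Rab3, fell 2.37-fold, Doc2a, a calcium sensor of release, 2.65-fold, Rab3c 1.81-fold and the membrane-bending protein Bin1 1.56-fold. Of 25 postsynaptic genes, Nos1ap, an adaptor of neuronal nitric oxide synthase, fell 2.95-fold, Lypd1, a modulator of nicotinic receptors, 2.58-fold, and the scaffolds Homer1 and Homer2 2.52-fold and 2.21-fold. Homer1 overlapped between genotypes because NT 3 lay at 26.1 CPM against 106 to 107 CPM in the other NT mice. Without NT 3, 8 postsynaptic genes were called.

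Immediate early genes are induced within minutes by neuronal activity. Of 12 tested, 4 were lower and 11 had a log2 fold change below 0. Ier5 measured 127, 215, 178 and 199 CPM in NT and 76.4, 60.7, 40.9 and 42.9 CPM in R6/2 mice, a 3.29-fold fall. Junb fell 2.93-fold, from 171 to 513 CPM to 84.6 to 131 CPM, and Jund fell 2.43-fold. The remaining call was Homer1, which is also counted among the postsynaptic genes above and was measured over all its isoforms together. Whether these falls follow from neuronal activity was not tested. Fos, Arc, Egr1 and Nr4a1 had too few reads to be tested. Bdnf, the growth factor that cortical neurons supply to the striatum, did not pass (log2 fold change −0.64, edgeR adjusted p = 0.285). Without R6/2 3, 2 of the 12 were called.

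The neurofilament triplet that fills large axons was lower as a whole. Nefm measured 1285, 1495, 1891 and 1257 CPM in NT and 652, 670, 652 and 735 CPM in R6/2 mice. Nefl, Nefm and Nefh fell 1.87-fold, 2.18-fold and 2.19-fold without overlap and were called in all 8 fits with 1 mouse left out. Stmn4, a regulator of microtubules, fell 1.68-fold and was called in 2 of the 8, and the other 26 tested microtubule and filament genes did not pass. In energy metabolism, Ckb and Ckmt1, the cytosolic and mitochondrial creatine kinases, fell 1.84-fold and 1.78-fold, and with Aldoc were the only called genes of 37. Ckb measured 12906, 10488, 11971 and 8869 CPM in NT and 5913, 5540, 5944 and 6634 CPM in R6/2 mice.

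Clock genes moved in both directions. Dbp (ENSMUSG00000059824, chromosome 7, 45705088 to 45710203), a transcription factor at the output of the clock, measured 372, 404, 277 and 355 CPM in NT and 78.4, 92.2, 75.8 and 106 CPM in R6/2 mice, a 4.05-fold fall. Cry1, a repressor in the core loop, measured 11.8, 23.9, 26.1 and 12.8 CPM in NT and 47.5, 36.0, 47.0 and 58.1 CPM in R6/2 mice, a 2.62-fold rise without overlap. The other 8 tested clock genes did not pass, and time of dissection was not given in the sources used here. Without NT 4, R6/2 3 or R6/2 4, 1 clock gene was called.

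Called rises in the housekeeping lists were few. Rpl5, a protein of the large ribosomal subunit, was the only called gene of 78 ribosomal protein genes and rose 1.66-fold, and was called in 2 of the 8 fits with 1 mouse left out, without NT 1 or NT 2. Ndufa3 and Uqcrb, subunits of respiratory complexes I and III, were 2 of 78 nuclear oxidative phosphorylation genes called and rose 1.80-fold each. Both lists had medians above 0 (0.34 and 0.23), with 10.3% and 16.7% of their genes below 0, and their summed levels overlapped between genotypes. Respiratory calls numbered 6 without NT 1 and 1 without NT 2, NT 4, R6/2 1 or R6/2 2. No gene passed among 46 chaperones, 35 proteasome subunits, 70 translation factors and tRNA synthetases, 34 axonal motors, 21 autophagy and ubiquitin genes, 16 chromatin genes, 11 mitochondrially encoded genes, 9 DNA repair genes or 21 genes of cholesterol synthesis, whose median was −0.39. Of the cholesterol genes, 8 had an unadjusted p under 0.05 in edgeR and none was called by DESeq2. Over all lists without a call, 43 of 307 tested genes had an unadjusted p under 0.05 and DESeq2 called 3, a chaperone, a motor and a translation gene. Among all 6119 tested genes, 1054 had an unadjusted p under 0.05 in edgeR.

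**Figure D2:**
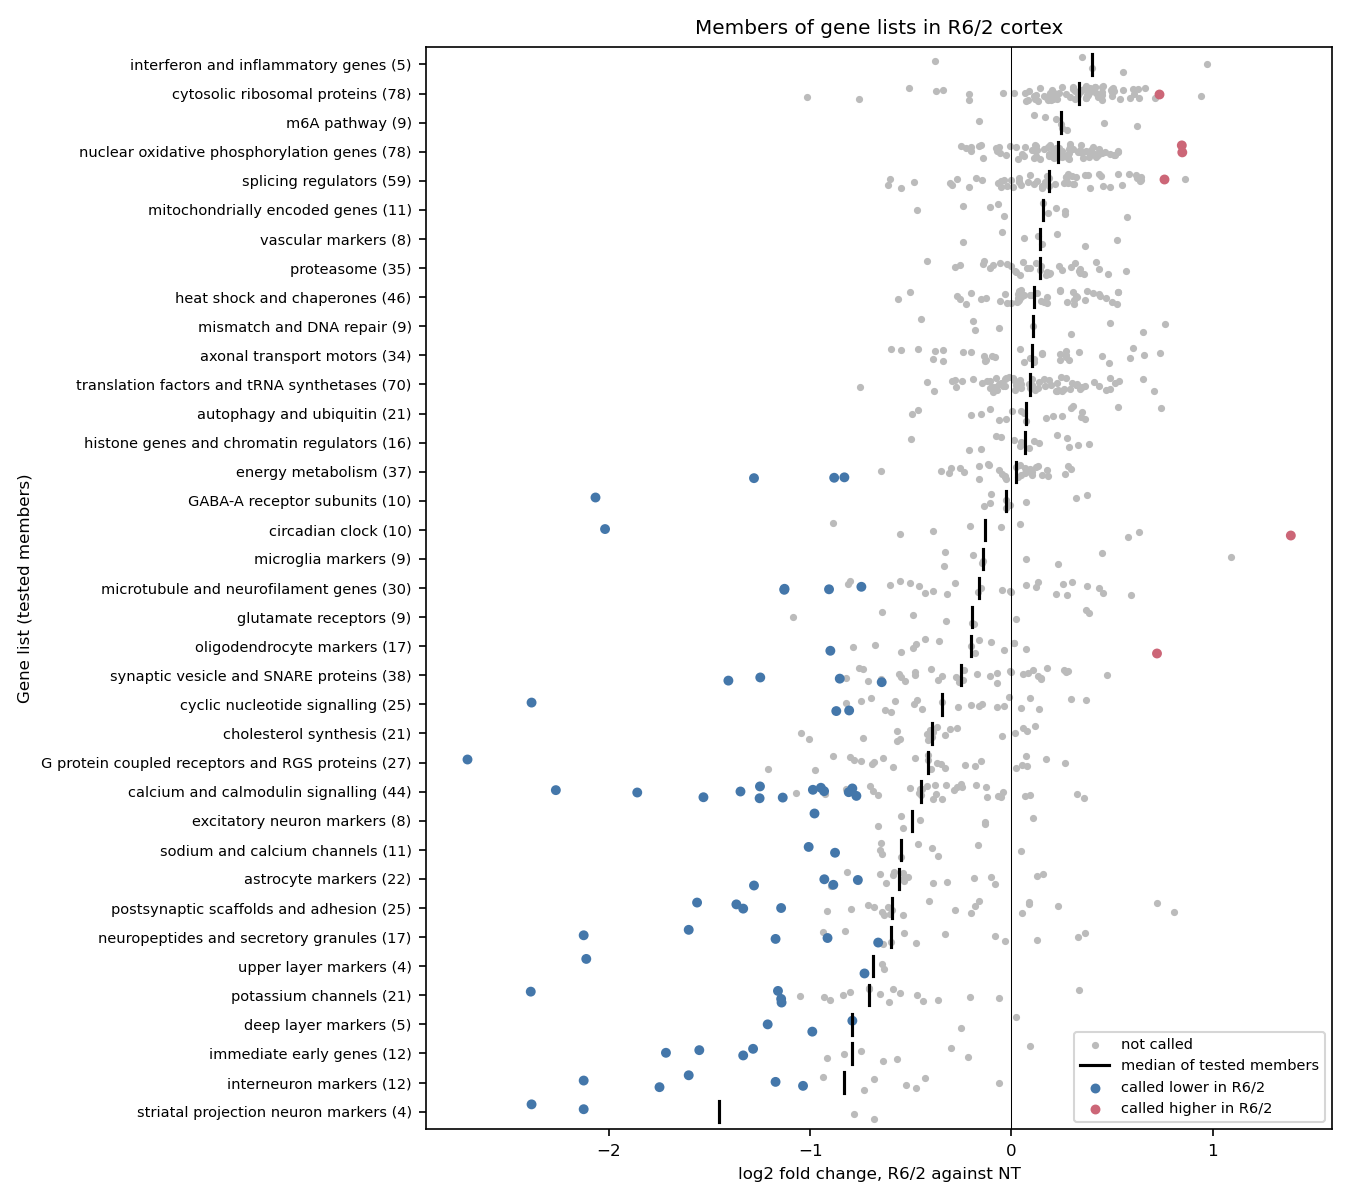
The log2 fold change (R6/2 against NT) of every tested member of the lists with at least 4 tested members, with the number tested in brackets, genes called lower in blue, genes called higher in red, the rest in grey, and a black line at each list's median. Calls below 0 gather in neuronal, astrocyte and calcium signalling lists at the bottom, and the 6 red points lie in the ribosomal, oxidative phosphorylation, splicing, clock and oligodendrocyte lists.

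RNA-binding proteins bear on the study's question of altered splicing. Tardbp, which encodes TDP-43, measured 20.7, 31.0, 26.1 and 23.5 CPM in NT and 43.4, 38.2, 33.4 and 32.8 CPM in R6/2 mice. These values did not overlap, yet the change was not called (log2 fold change 0.53, SE 0.29, edgeR adjusted p = 0.355), and 10.2% of all tested genes likewise did not overlap. Of 59 tested splicing regulators, Rbm25, a splicing factor, was the only call and rose 1.69-fold, from 167 to 198 CPM to 232 to 386 CPM. It was called in 3 of the 8 fits with 1 mouse left out, without NT 1, NT 3 or R6/2 4. The list's summed level was 7729 to 9466 CPM in NT and 9672 to 9971 CPM in R6/2 mice, without overlap, and 27.1% of members had a log2 fold change below 0. Sums of other lists did not overlap either, such as that of chromatin genes at 2180 to 2270 CPM in NT and 2326 to 2651 CPM in R6/2 mice.

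For the m6A pathway, which methylates adenosines in RNA, none of 9 tested genes passed edgeR's test, none had an unadjusted p under 0.05 and none was called by DESeq2. The writer Mettl3 had a log2 fold change of 0.63 (edgeR adjusted p = 0.341), with 12.8 to 29.5 CPM in NT and 25.3 to 39.4 CPM in R6/2 mice, and the erasers Fto and Alkbh5 had 0.25 and 0.28. Mettl14 had at most 7 reads in any mouse and was not tested. Summed over 18 listed genes, the pathway lay at 517 to 578 CPM in NT and 611 to 650 CPM in R6/2 mice, a difference without overlap for which no test was made. Many other lists had sums without overlap too.

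Genes called lower were found in every class of gene length. The study compared the average intron length of genes lower and higher in its short-read data. Genomic span, from the first to the last base of a gene, is another measure and was used here on the long reads. In 4 equal classes of span from the shortest to the longest, 3.01%, 3.27%, 2.09% and 2.88% of tested genes were called lower and 0.458% higher in each. The median log2 fold change was 0.06 in the shortest class and −0.03 in the longest, which holds spans from 51667 to 2270724 bp. Across 6113 genes, which are not independent replicates, Spearman's rho of span and log2 fold change was −0.0835. The 44 lower genes of the longest class became 16 to 75 with 1 mouse left out and 17 without ISM reads.

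Isoform usage, the percentage of a gene's complete reads (known isoforms, and unannotated isoforms of the NIC and NNC classes) on each isoform, was tested next. NIC isoforms combine known splice sites in a way the annotation lacks, and NNC isoforms hold a new site. In edgeR's diffSpliceDGE with Simes p values, 11 of 3060 genes (0.359%) passed at an adjusted p under 0.05, 170 had an unadjusted p under 0.05, and the gene-level F test called 28. The 11 are Arpp19, Dctn2, Camk2b, Arl2bp, Ndrg4, Sars, Sult4a1, Mat2b, Apbb1, Camkk2 and Sumo3. With 1 mouse left out, the number was 1 without R6/2 2, 3 without NT 2 or R6/2 3, and between 8 and 15 otherwise. With ISM reads added 8 genes were called, and Mat2b, Apbb1, Camkk2 and Sumo3 were not among them (edgeR adjusted p = 0.0849, 0.241, 0.0787 and 0.0915).

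Calls for expression and for usage met in 2 genes. Of the 200 genes called for expression, 97 had at least 2 isoforms to test, and Arpp19 and Camkk2 (2.06%) were called for usage as well. The share called for usage among all tested genes was 0.359%. An unadjusted p under 0.05 was found for 15 of the 97 (15.5%), against 5.56% of all tested genes. Both shares were thus higher among genes called for expression, while the other 9 of the 11 genes with changed usage were not called for expression.

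In several of the 11 genes, the known isoform that changed parts from another isoform of the gene at a start, a first donor or a cassette exon. The sequences below mark these places in 5 genes, which tell the changed isoforms apart, in the transcripts of GENCODE M21 (mm10), with 15 bases on each side of the point where isoforms part, read 5′ to 3′ in the direction of the gene, and capitals mark bases that the other isoform of the gene does not have at that place.

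Arpp19 distal start: GCGGAGGAGCAAAAGgaaatggaagataaa
Arpp19 proximal start: TTGAAATTATTTCAGgaaatggaagataaa
Arl2bp upstream donor: CTTCGCGCTGTCCTTctcctccgcctctga
Arl2bp downstream donor: AAGAGCCAGGATGCGctcctccgcctctga
Mat2b proximal first exon: TGCCAGCTGGTGGAGgaggaagtgaacatc
Mat2b distal first exon: GAGGCCATGGAACAGgaggaagtgaacatc
Ndrg4 proximal start: GAGTGCTGGGATGGGgaacatgacatcgag
Ndrg4 distal start: GACACAGACTGGAAGgaacatgacatcgag
Camkk2 exon start: tggaaacctgctcacCAAAAAACCAACCAG
Camkk2 exon end: TTGTCTGAGCCCAAGgaagcaaggcagcga
Camkk2 exon skipped: tggaaacctgctcacgaagcaaggcagcga

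Arpp19, an inhibitor of protein phosphatase 2A, shifted its start. The isoform ENSMUST00000166549 of 2 exons begins at 75052051 on chromosome 9, within what is an intron of the 4-exon isoform ENSMUST00000168166 that begins at 75037614. Their coding sequences hold 288 and 336 nt, and the sequences above show the 2 ways into the shared bases. The 2-exon isoform held 48.6%, 67.1%, 61.6% and 65.1% of reads in NT and 18.2%, 10.5%, 21.8% and 27.7% in R6/2 mice, and the 4-exon isoform rose from 23.8% to 35.2% to 52.1% to 65.5%. Neither range overlapped between genotypes (edgeR adjusted p = 0.00261; 0.0554 without R6/2 2). ENSMUST00000169448, annotated as a retained intron at the distal start, held 0% to 0.671% and 2.11% to 4.25%. The level of the gene fell 1.75-fold.

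Arl2bp, a binding partner of the small GTPase ARL2, used 2 donor sites of its first exon. The donor at 94667230 on chromosome 8 (ENSMUST00000109527, coding sequence of 456 nt) lies downstream of that at 94666901 (ENSMUST00000034228, 489 nt), and in both the first exon joins the same second exon. These isoforms also differ in annotated start (94666723 and 94666600) and in length (1133 and 2063 nt), and usage was counted for whole isoforms. The downstream donor held 22.9%, 20.5%, 22.7% and 20.9% of reads in NT and 3.53%, 4.94%, 6.25% and 4.48% in R6/2 mice (edgeR adjusted p = 0.00377; 0.0535 without R6/2 2). Values within a genotype spread by 1.26 and 1.13 percentage points (SD, n = 4), far less than the difference, and the level of the gene was not called.

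Mat2b, the regulatory subunit of methionine adenosyltransferase II, which makes the methyl donor of the cell, has alternative first exons on chromosome 11. The distal exon (40694803 to 40695203, ENSMUST00000101347) was used by 29.2%, 22.8%, 22.1% and 28.7% of reads in NT and by 5.88%, 9.09%, 9.29% and 12.4% in R6/2 mice. The proximal exon (40692478 to 40692774, ENSMUST00000040167) rose from 64.7 ± 4.34% to 79.9 ± 2.60% (SD, n = 4), without overlap. Their coding sequences hold 969 and 1002 nt. The call (edgeR adjusted p = 0.0106) was lost without NT 2, NT 4, R6/2 1, R6/2 2 or R6/2 3, at adjusted p up to 0.136.

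Ndrg4, a neuronal gene of the N-myc downstream regulated family, lost reads from its distal start. ENSMUST00000041318, which starts at 95678085 on chromosome 8 and has 17 exons, held 4.56%, 7.40%, 9.05% and 8.18% in NT and 1.77%, 2.35%, 1.94% and 2.05% in R6/2 mice. The main isoform ENSMUST00000073139, from the proximal start at 95703037, rose from 46.9% to 70.8% in NT to 76.3% to 79.9% in R6/2 mice. The lowest of these NT values was in NT 3, where a short isoform annotated as a retained intron took 27.6% of reads against 4.87% to 7.49% in the other NT mice. The call (edgeR adjusted p = 0.00419) was lost without NT 2, R6/2 2 or R6/2 3 (adjusted p of 0.0971, 0.0754 and 0.103).

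Sars, the seryl-tRNA synthetase gene, included a cassette exon less. The including isoform ENSMUST00000102625 held 16.3%, 29.9%, 18.7% and 29.1% of reads in NT and 7.34%, 9.90%, 8.20% and 8.33% in R6/2 mice. NT values were spread by 7.04 percentage points (SD, n = 4) and still lay above all R6/2 values, while the gene's level was not called. The isoforms also differ in annotated end, with 3570 nt for the skipping and 1866 nt for the including isoform. The call (edgeR adjusted p = 0.00419) was lost without NT 2, NT 4, R6/2 2 or R6/2 3, at adjusted p of 0.0535 to 0.143.

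Camkk2 changed in level and in isoform. Exon skipping removes 43 nt (chromosome 5, 122736988 to 122737030), which is no multiple of 3, and the skipping isoform ENSMUST00000200109 has a coding sequence of 1623 nt against 1764 nt of the main isoform ENSMUST00000111668. Their annotated lengths are 2751 and 4861 nt, so the isoforms differ beyond this exon. The skipping isoform held 1.96%, 2.48%, 4.54% and 3.10% of reads in NT and 30.8%, 11.1%, 18.2% and 9.09% in R6/2 mice. A short isoform that ends early, ENSMUST00000196742 with 5 exons, rose likewise from 1.65% to 3.92% to 7.69% to 25%. Only 26 to 129 complete reads per mouse stand behind these shares, and the call (edgeR adjusted p = 0.0377) was lost without any of NT 2, NT 3, NT 4, R6/2 2, R6/2 3 or R6/2 4, at adjusted p of 0.0512 to 0.295. The main isoform fell from 74.5% to 87.6% to 58.3% to 66.7%.

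For Camk2b and Dctn2 the changed isoforms are unannotated. Camk2b, the β subunit of CaM kinase II, shifted from ENSMUST00000109813 of 21 exons and 4023 nt, at 83.6% to 84.7% of reads in NT and 63.5% to 78.0% in R6/2 mice, to a NIC isoform of 20 exons and 3751 nt, at 5.08% to 7.65% and 13.8% to 25.9%. The main isoform varied by 0.52 percentage points between NT mice (SD, n = 4). The call (edgeR adjusted p = 0.00377) was lost without NT 2, R6/2 2 or R6/2 3 (0.0971, 0.0535 and 0.103). Dctn2, the dynamitin subunit of the dynein adaptor dynactin, gained a NIC isoform of 13 exons from 0% to 0.732% in NT to 2.86% to 4.73% in R6/2 mice, with 214 to 524 complete reads per mouse, and was called in every fit with 1 mouse left out.

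Apbb1, an adaptor of the amyloid precursor protein, was used less from an internal start. ENSMUST00000187057, which starts at 105568777 on chromosome 7 within the span of the main isoform, held 15.8%, 12.5%, 10.4% and 10.4% in NT and 7.20%, 3.76%, 4.13% and 5.43% in R6/2 mice, and the main isoform ENSMUST00000189378 rose from 57.0 ± 6.34% to 71.5 ± 2.54% (SD, n = 4). Sult4a1, a brain sulfotransferase, and the ubiquitin-like Sumo3 changed only in rare isoforms. A 2-exon NIC isoform of Sult4a1 held 0.246% to 1.1% in NT and no read in R6/2 mice, and ENSMUST00000099538 of Sumo3 held 1.22% to 3.43% and 0% to 0.306%. Apbb1 (edgeR adjusted p = 0.0301) was called in 3 of the 8 fits with 1 mouse left out, without NT 3, NT 4 or R6/2 1, and Sult4a1 (0.0103) in 5, without NT 1, NT 3, NT 4, R6/2 1 or R6/2 4. Sumo3 (edgeR adjusted p = 0.0486) was called only without NT 1 or NT 3. The Sult4a1 isoform kept 8 of its 16 reads without NT 2, and that of Sumo3 8 of its 14 without NT 4, and so neither reached the 10 reads needed for the test.

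**Figure D3:**
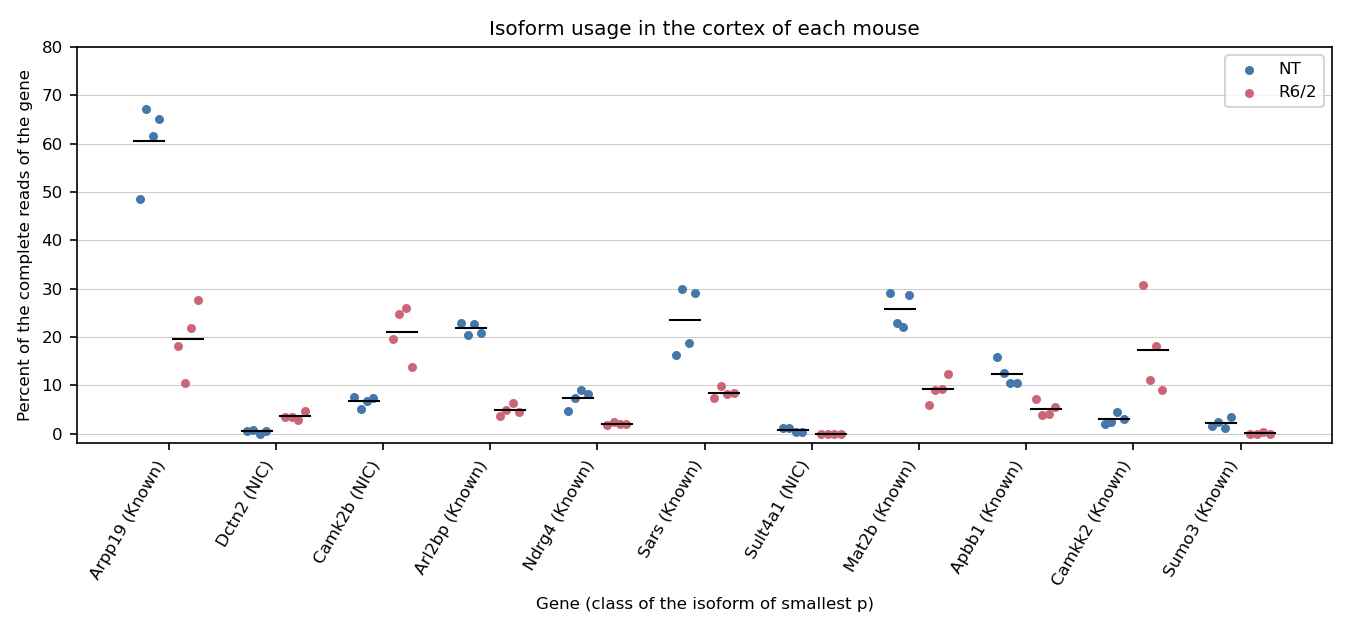
Usage of the isoform of smallest p in each of the 11 called genes, in percent of the complete reads of the gene, with 1 point per mouse, NT in blue, R6/2 in red and black lines at the mean of 4 mice. Arpp19 falls from 60.6% to 19.5% on average, and no gene's NT and R6/2 points overlap. The isoforms were picked by p in these samples, and the share without overlap over all tested isoforms was not computed.

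The leading isoform, the one of largest mean usage, differed between genotypes for 71 of 2455 genes with at least 10 complete reads in every mouse (2.89%). This counts small shifts between isoforms of near equal usage, and for 5 genes (Klc1, Arpp19, Cplx2, Tmem234 and Btbd10) neither isoform overlapped between genotypes. In 20 of the 71, at least 1 isoform did not overlap. The 71 were picked by their means in these samples, and the share without overlap over all 2455 genes was not computed. Klc1, a light chain of the motor kinesin, had the most reads of the 71, with 206 to 458 per mouse. Its isoform ENSMUST00000118471 of 14 exons held 42.4%, 31.5%, 30.6% and 32.5% in NT and 13.9%, 21.3%, 17.5% and 19.0% in R6/2 mice, and a NIC isoform of 15 exons held 13.1%, 17.1%, 12.6% and 16.3% and 33.6%, 23.9%, 31.9% and 32.3%. Klc1 passed edgeR's gene-level F test (adjusted p = 6.62e-06) and not the Simes test (adjusted p = 0.124).

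Cplx2, a complexin that clamps vesicle fusion, shifted from ENSMUST00000026985 at 56.4% to 61.4% in NT and 33.0% to 42.1% in R6/2 mice to an NNC isoform at 36.6% to 39.7% and 52.0% to 63.9%. Neither edgeR test called it (edgeR Simes adjusted p = 1, F test 0.573). Of the other genes with most reads, Ociad1 gained ENSMUST00000031038 without overlap, from 34.97 ± 8.66% to 46.3 ± 3.03%, and in Ttc3, Cuedc2, Tcf25, Pcnp and 2810428I15Rik both isoforms overlapped between genotypes.

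**Figure D4:**
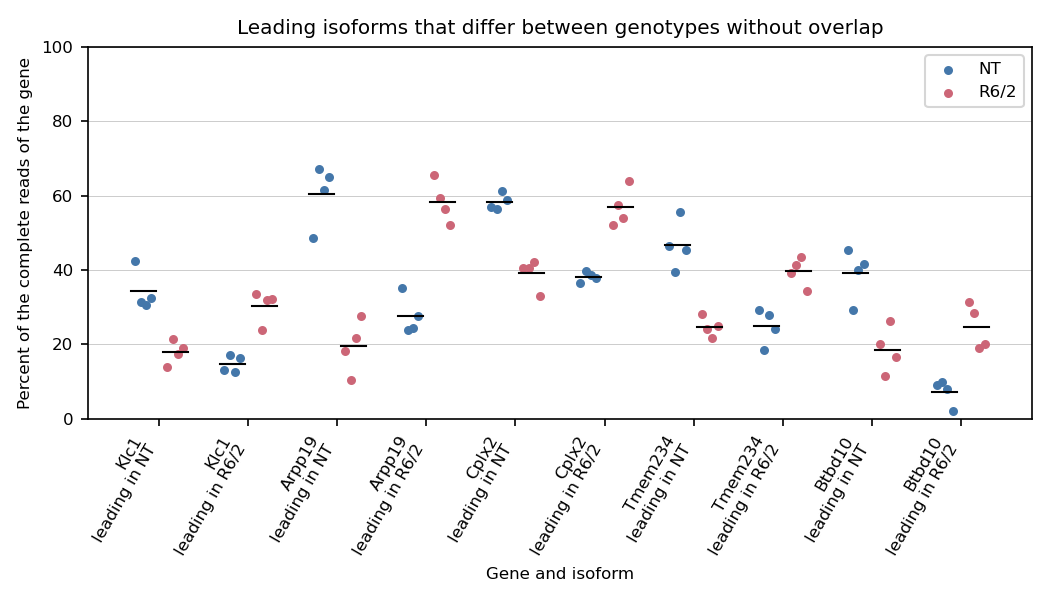
Usage in percent of complete reads of the isoform leading in NT and of the isoform leading in R6/2 mice, for the 5 genes in which neither overlaps, with 1 point per mouse, NT in blue, R6/2 in red and black lines at the mean of 4 mice. In Cplx2 the isoform leading in NT goes from 58.4% to 39.1% and the isoform leading in R6/2 mice from 38.2% to 56.9%.

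Exons were then grouped by length, since microexons of at most 27 nt are mostly neuronal and exons of a length divisible by 3 keep the reading frame. Inclusion was set against the mean of the 8 mice for 635 annotated alternative exons in 503 genes. The difference in mean inclusion, R6/2 minus NT, was −4.76 percentage points for 32 microexons, −1.77 points for 290 longer exons divisible by 3 and −2.52 points for 313 longer exons of other lengths. For the longer classes the genotypes did not overlap and the exact two-sided permutation p was 0.0286, the smallest that 4 against 4 mice can give, which became 0.0714 after adjustment over the 5 comparisons; for microexons NT 2 and R6/2 3 crossed and the p was 0.0571 (adjusted 0.0952). No class therefore passed at 0.05. At the smallest p possible here, the longer classes could pass after adjustment only if another comparison had reached it too. The adjusted result thus cannot decide whether inclusion of longer exons differed. No difference between classes passed, at −2.60 points for microexons against longer exons (exact permutation p = 0.314) and 0.75 points for divisible against other lengths (p = 0.4).

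Over all classes 383 exons were lower and 251 higher, and inclusion of single exons did not overlap between genotypes for 34 lower exons (5.35%) and 11 higher ones (1.73%). Smaller differences came from better covered exons. Weighted by spanning reads, they were −1.16 points for microexons, −0.45 for lengths divisible by 3 and −0.67 for other lengths, and for microexons −1.75 points with at least 5 spanning reads in every mouse.

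**Figure D5:**
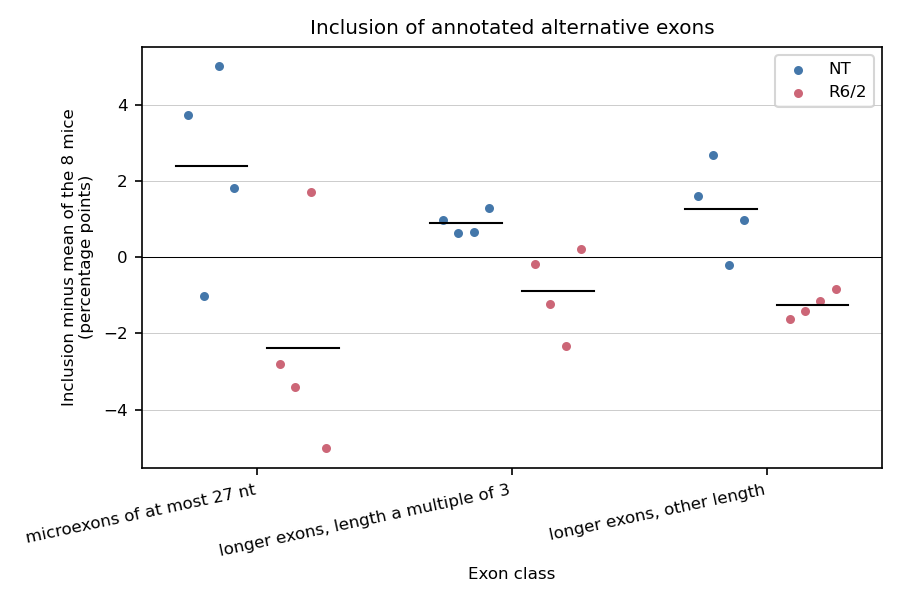
Mean inclusion of annotated alternative exons in each mouse, in percentage points from the mean of the 8 mice, for microexons (32), longer exons of a length divisible by 3 (290) and other exons (313), with NT in blue, R6/2 in red and black lines at the mean of 4 mice. All 4 R6/2 mice lie below all 4 NT mice in the longer classes, and microexons spread widest.

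No annotated transcript type differed beyond the spread between mice. Of reads on annotated isoforms, retained introns held 1.60 ± 0.247% in NT and 1.72 ± 0.176% in R6/2 mice, targets of nonsense-mediated decay 0.477 ± 0.0632% and 0.462 ± 0.0371%, and processed transcripts without coding sequence 0.539 ± 0.0541% and 0.551 ± 0.0406% (SD, n = 4; exact permutation tests, adjusted p = 0.771 each).

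To see which cortical effects differ from those in striatum, the genotype effect was compared between regions in 1 fit over all 16 samples, whose log2 fold changes are given here. The fit treated the 16 samples as independent, and the labels do not say whether cortex and striatum came from the same mice. Of 7388 genes, 3 (0.0406%) passed edgeR's test of the difference, and 430 had an unadjusted p under 0.05. Of the 200 genes called in cortex, 2 differed, and 53 had an unadjusted p under 0.05 for the difference. The 200 were picked by their cortical values, which also enter the difference, so this share is not free of that choice. A gene that did not pass is not thereby shown to change alike in both regions. Lamp5 fell in cortex and had a log2 fold change of −0.41 in striatum (difference −1.72, edgeR adjusted p = 0.00307). Marcksl1, an actin-regulating substrate of protein kinase C, fell in cortex by 0.83 on the log2 scale and rose by 0.80 in striatum (difference −1.63, edgeR adjusted p = 0.0332). Ccm2, a scaffold of vessel integrity, had a log2 fold change of −0.28 in cortex and −1.65 in striatum (difference 1.37, edgeR adjusted p = 0.0332). With 1 of the 16 samples left out, Lamp5 was called in all 16 fits, Marcksl1 in 4 and Ccm2 in 3, at adjusted p up to 0.146 for Marcksl1 and 0.179 for Ccm2. Without the term for sets of counts, Lamp5 was the only call. Marcksl1 measured 138 to 254 CPM in NT and 103 to 138 CPM in R6/2 cortex, without TMM scaling, and 35.8 to 133 CPM and 110 to 199 CPM in striatum.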

How the data were processed

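Per the labels and the study's methods, the authors made PacBio Iso-seq libraries from PCR-amplified cDNA, kept full-length, polyadenylated reads, mapped these to mm10 with minimap2 (2.17-r941), and used TranscriptClean for correction and TALON for isoform assignment. The deposited values are counts of reads per isoform, unfiltered and not normalized. Without molecular identifiers, reads are not independent molecules.

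Counts of known, ISM, NIC and NNC isoforms of annotated genes were summed per gene symbol, and 6119 genes passing filterByExpr were tested with edgeR 4.0.16 (TMM, quasi-likelihood, Benjamini-Hochberg, threshold 0.05) under R 4.3.3. Isoform usage was tested with diffSpliceDGE over known, NIC and NNC isoforms of at least 10 reads. Per-mouse measures were compared by exact two-sided permutation tests (70 arrangements, smallest p 0.0286). Exons, spans and sequences come from GENCODE M21 (mm10), to which 37584 of 37726 known isoforms matched by identifier. In simulated cortex counts, 56% of 2-fold and 86% of 4-fold changed genes were recovered among 5884 genes, and 89% of 200 genes with exchanged isoforms among 2816. The genes with exchanged isoforms had at least 100 reads, and 60% of the reads of the major isoform were moved. Recovery of smaller shifts, or in genes with fewer reads, was not simulated.

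Striatal samples with 2 sets of counts were summed. DESeq2 1.42.0, other filters and scalings, other isoform classes, a block for the sample number and leave-one-out fits were the alternatives.

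Members and lists were chosen with earlier results of these data known. Named are the 10 largest rises and falls among called genes without overlap whose higher mean reached 20 reads, up to 4 called members per list and role, 9 genes of the study's question, all genes called for isoform usage, the 10 leading-isoform switches with most reads, and genes called for the regional difference. Other genes (Slc17a7, Sst, Pvalb, Drd1, Drd2, Ttr, Gad1, Camkv, Chga, Gabra4, Fos, Arc, Egr1, Nr4a1, Tmem234, Btbd10) were named after their values were seen. Nothing in the labels says more on the source of samples than mouse numbers, so p values measure the spread between these samples. Some items are not reported here.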

Additional observations from a re-analysis of the deposited data

Results flagged for a closer look

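Of 222 groups of 4 mice examined for a value far from the others (a gap over 0.829 of the group's range), 12 had one, and chance alone gives about 1 in 20. In NT mice these were a high Fjx1 level (136 CPM in NT 1, next 74.0 CPM), a high Kcnq1ot1 level (47.0 CPM in NT 4, next 31.3 CPM), and low levels in NT 3 of E130012A19Rik (36.6 CPM, next 118 CPM), Homer1 (26.1 CPM, next 106 CPM) and Stmn4 (261 CPM, next 378 CPM). In R6/2 mice they were high levels of Npy (130 CPM in R6/2 1, next 91.0 CPM), Rpl5 (718 CPM in R6/2 1, next 522 CPM) and Nefl (2190 CPM in R6/2 4, next 1700 CPM), low levels of Homer2 (38.2 CPM in R6/2 2, next 65.2 CPM) and Ccm2 (90.9 CPM in R6/2 4, next 109 CPM), a high share of intergenic reads (1.66% in R6/2 1, next 1.04%), and usage of the rare Sumo3 isoform (0.306% in R6/2 3, 0 in the others). NT 3 had the fewest reads of the 8 samples.

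The genotype effect differed between cortex and striatum for 3 genes, by −1.72 (log2) for Lamp5, −1.63 for Marcksl1 and 1.37 for Ccm2.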

How the results depend on the processing

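Without ISM reads 95 genes were called (7 higher, 88 lower), of which 35 were list members and 17 lower genes of the longest class of genomic span, and without a filter 65 were higher. DESeq2 called 166 genes. With 1 mouse left out, 95 to 306 genes were called (9 to 82 higher, 86 to 224 lower), 37 to 115 list members and 16 to 75 lower genes of the longest spans. Isoform usage was called for 7 genes with known isoforms only, for 28 by the F test and for 1 to 15 with 1 mouse left out. The regional difference was called for 6 genes by DESeq2, 8 without a filter, 1 without the term for sets of counts and 1 to 3 with 1 mouse left out.

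Microexons minus longer exons changed sign to 0.11 with at least 5 spanning reads, and lengths divisible by 3 minus others to −0.19 with at least 20 reads of each form. The cause was not tested. With 1 mouse left out, differences (R6/2 minus NT) in percent of reads ranged from −0.61 to 0.39 for ISM, −0.14 to 0.0823 for NIC, −0.097 to 0.0107 for NNC, −0.66 to 0.14 for genomic, −1.26 to 0.73 for antisense and −0.00588 to 0.0682 for mitochondrially encoded reads, and from −0.0432 to 0.00326 for nonsense-mediated decay and −0.0109 to 0.0312 for processed transcripts.

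Correlations of deviations between mice of the same number were 0.222, −0.063, −0.0809 and 0.152 for numbers 1 to 4. For numbers 1 and 4, though not 2 and 3, the NT mouse correlated best with the R6/2 mouse of its own number. NT 1 and R6/2 1 also had the shortest mean isoform length of their genotypes (1821 and 1844 nt). What mice of the same number share was not tested. With sample numbers as a replicate block, 205 genes (35 higher, 170 lower) and 8 isoform usage genes were called, without Sult4a1, Apbb1, Camkk2 and Sumo3 (edgeR adjusted p = 0.0551, 0.189, 0.138 and 0.24). Ndrg4 was not called with known isoforms only (edgeR adjusted p = 0.0505). Low depth in NT 3 limits what its absent reads can show.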
